A study of Homo sapiens with 27 samples.

Results

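SK-Mel 28 is a human melanoma cell line that makes pigment, and the libraries carrying its label were compared with those of 8 other established lines. The 3 SK-Mel 28 libraries, of 27 in all, were chosen by their cell line label alone. The other 24 libraries comprised 3 each of SK-Mel 24 (a second melanoma line, also labelled skin), U251 (glioblastoma, labelled brain), U2-OS (osteosarcoma, bone), A549 (lung adenocarcinoma), Caco2 (colon adenocarcinoma), HepG2 (liver tumour), RT4 (from a bladder tumour, with the tissue label kidney) and BJ (foreskin fibroblasts, with the tissue label epithelial). The labels name no treatment or edit, and poly-A RNA was sequenced from each. SK-Mel 28, Caco2, HepG2 and U251 grew in EMEM. SK-Mel 24 had EMEM with more serum, A549 and BJ had DMEM and RT4 and U2-OS had McCoy medium. Line and medium therefore cannot be told apart where media differed. The series calls the 3 libraries of a line biological replicates, and how far apart their cultures were is not stated. The p-values measure only the spread among these libraries, and each line stands for 1 tumour or donor.

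Melanocytes make melanin inside melanosomes, organelles related to lysosomes. The transcription factor MITF, itself driven by SOX10, PAX3 and LEF1, switches on the enzymes, fibril proteins, transporters and transport machinery of the organelle. Melanoma cells keep this programme to very different degrees. Cells low in MITF often express receptors such as AXL and EGFR and matrix genes, a state called undifferentiated or invasive.

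The SK-Mel 28 libraries held 31298072, 29046989 and 16929244 estimated counts, and the other libraries 15597117 to 32583547. Mitochondrially encoded genes took 2.319% to 3.387% of SK-Mel 28 counts and 32.557% to 71.06% of HepG2 counts, against 0.928% to 5.718% in the other 7 lines. TPM (abundance scaled to transcript length and to the library total) therefore understates nuclear genes in HepG2, while the fitted fold changes use scaling factors. Library 3 of SK-Mel 28 was the shallowest of its line, and all 3 had 11773 to 11904 protein-coding genes at 1 TPM or more. In bulk RNA a share of cells with a gene and its level per cell cannot be told apart.

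The 4 defining markers of pigment cells were each highest in SK-Mel 28. PMEL, the fibril protein of melanosomes (chromosome 12, 55954105 to 55973317, GRCh 38), stood at 7026, 8217 and 11389 TPM in the 3 SK-Mel 28 libraries. The other 24 libraries ranged from 0.214 to 12.2 TPM with a median of 1.72. PMEL was the protein-coding gene with the second highest level in libraries 1 and 2 and the highest in library 3, leaving mitochondrial genes aside. It took 0.703%, 0.822% and 1.14% of all TPM, against at most 0.00122% elsewhere. TYR, tyrosinase, which starts melanin synthesis (chromosome 11, 89177452 to 89295759), stood at 348.3, 457.6 and 525.2 TPM, and at most 0.512 TPM in any other library. DCT, which acts after TYR, stood at 399.7, 371.5 and 509.5 TPM and at most 1.23 TPM elsewhere. MITF (chromosome 3, 69739435 to 69968337) stood at 214.3, 251.1 and 256.3 TPM, with the other libraries at 0.0642 to 19 TPM with a median of 8.89. For all 4 genes each SK-Mel 28 library exceeded each other library. The pigment cell markers set SK-Mel 28 apart from SK-Mel 24 as well, where MITF stood at 11.8 ± 1.75 TPM and TYR at 0.329 ± 0.158 TPM.

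The first comparison asked how SK-Mel 28 differed from the average of the other lines. Of 17284 genes tested, 3489 were higher (20.2%) and 2330 lower (13.5%), at an adjusted p under 0.05 and a difference of at least 2-fold. The average is taken over log levels, so a line at 0 counts pulls it down. A call of higher therefore says neither that the level is high nor that it tops the lines: 496 of the higher genes lay under 1 TPM in SK-Mel 28, and 1834 had a higher mean TPM in some other line. A stricter comparison asked which genes stood at least 4-fold above, or below, each of the 8 lines in 8 one-sided tests. It found 213 genes above each other line (1.23%), 188 of them protein coding, and 76 below each (0.44%), 74 of them protein coding. SK-Mel 24 was the next highest line for 69 of the 213 genes, more often than any other line, and for none of the others did this exceed 24.

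Line by line, SK-Mel 28 differed from SK-Mel 24 in the smallest share of genes, 31.9% (2660 higher and 2847 lower in SK-Mel 28). The share was 35.6% against U251, 40.3% against A549, 40.8% against BJ, 44.2% against RT4, 44.8% against U2-OS and 47.2% against Caco2. It was largest against HepG2, at 57% (5150 higher, 4706 lower). These 8 comparisons share the SK-Mel 28 libraries. The 44 genes of 6 pigment cell lists were described against this background: 37 were higher, 1 lower and 6 neither, and 13 stood above each other line. Their median log2 fold change was 4.30, against -0.03 for all tested genes. In TPM, 29 of the 44 had no overlap between SK-Mel 28 and the other 24 libraries, a share that was not computed for all genes. By mean TPM 33 of the 44 were highest in SK-Mel 28, as were 2319 of the 17284 tested genes. Together the 44 genes took 1.89% to 2.49% of SK-Mel 28 TPM, and at most 0.467% in any other library.

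**Figure D1:**
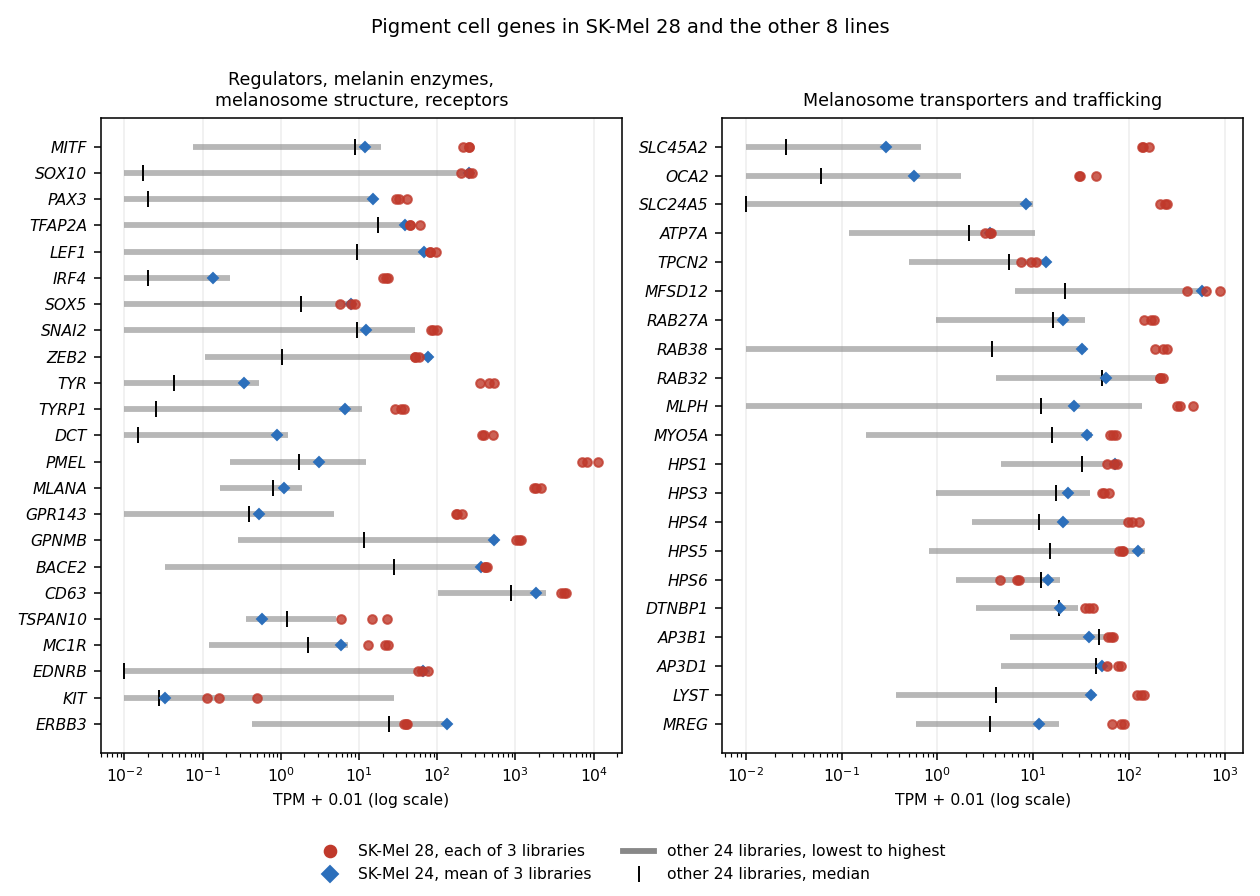
TPM plus 0.01 on a log axis for the 44 genes of the 6 pigment cell lists: red points are the 3 SK-Mel 28 libraries, blue diamonds the SK-Mel 24 mean, grey bars the range and black ticks the median of the other 24 libraries. TYR, DCT, PMEL, MLANA and SLC45A2 lie far to the right of their grey bars, while SOX10, EDNRB and SOX5 coincide with SK-Mel 24.

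Among 9 melanocyte regulators all 9 were higher, and 2 of them, MITF and IRF4, stood above each other line (median log2 fold change 5.30). MITF was 12.4-fold above the nearest line, BJ. Against the mean of the other 8 lines its log2 fold change was 5.46 ± 0.12 (SE), edgeR adjusted p = 1.03e-21. IRF4, which acts with MITF on TYR, stood at 22.2, 20.2 and 23.2 TPM and at most 0.214 TPM elsewhere. SOX10, the neural crest factor that activates MITF, was high in both melanoma lines: 257.6, 202.3 and 276.3 TPM in SK-Mel 28 and 252.1 ± 30.8 TPM in SK-Mel 24 (log2 fold change 0.09, edgeR adjusted p = 0.842). The 2 lines were not separated for SOX10, and each of the other 7 lines had a mean of at most 0.0536 TPM. PAX3, a partner of SOX10, stood at 34.2 ± 5.95 TPM and 15.1 ± 0.35 TPM in SK-Mel 24, a difference that passed the test (log2 fold change 1.30, edgeR adjusted p = 0.00119). LEF1, a WNT effector, stood at 85.9 ± 9.16 TPM and 67.1 ± 4.14 TPM, and TFAP2A, which binds pigment gene regions with MITF, at 50.2 ± 8.81 TPM and 38.5 ± 2.81 TPM, both differences under 2-fold. ZEB2, which melanocytes express, was 54.2 ± 4.05 TPM against 75.2 ± 10.3 TPM in SK-Mel 24, and SOX5 7.47 ± 1.56 TPM against 7.97 ± 0.986 TPM. Neither passed the test between the melanoma lines. SNAI2, a neural crest repressor, stood at 90.1 ± 8.42 TPM, next to 45.3 ± 5.58 TPM in BJ. Between the melanoma lines SOX10, ZEB2 and SOX5 were thus not separated, while PAX3, SNAI2, IRF4 and MITF were higher in SK-Mel 28, MITF by a log2 fold change of 4.60 (edgeR adjusted p = 3.01e-13).

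MITF is transcribed from several starts, and the one nearest the shared exons is known as the melanocyte start. MITF-201 and MITF-206, 2 of the 6 GENCODE transcripts that begin there, start at 69936587 and 69936592 and together stood at 78.5, 81.8 and 121 TPM in the SK-Mel 28 libraries. In the other 24 libraries they reached at most 1.15 TPM, in a SK-Mel 24 library, with a median of 0.0736. In A549, BJ and U2-OS, the lines next in level, most of MITF was assigned to other transcripts: the 2 melanocyte transcripts held 0% to 6.7% of their MITF TPM, against 36.6%, 32.6% and 47.2% in SK-Mel 28. The transcript given most reads in SK-Mel 28 was MITF-203, which starts at 69763811, with 104.8, 147.3 and 101.8 TPM. It is 4680 bases long, while the longest transcript at the melanocyte start has 1956 bases. Reads from shared exons are divided among transcripts by the software, so the split between MITF-203 and the melanocyte transcripts is uncertain. The stretch before the melanocyte start (chr3:69936432-69936586, plus strand, RefSeq, GRCh38.p14) is shown because the transcripts from it set SK-Mel 28 apart. Capitals mark TGACGTCA, the palindromic cyclic AMP response element, which ends 144 bases before the RefSeq start. This motif, searched after the values were seen, occurred in 1.65% of 35116 RefSeq promoter entries.
MITF: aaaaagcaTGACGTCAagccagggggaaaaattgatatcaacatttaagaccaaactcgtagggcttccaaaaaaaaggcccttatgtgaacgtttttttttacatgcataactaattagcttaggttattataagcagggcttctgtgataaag

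All 3 melanin enzymes stood above each other line, but at unequal levels. TYR reached 443.7 ± 89.3 TPM (SD, n = 3) and DCT 426.9 ± 72.9 TPM, whereas TYRP1, an enzyme of the eumelanin branch, stood at only 33.3 ± 4.2 TPM. The TYRP1 libraries gave 34.1, 28.8 and 37.1 TPM, and the next line, SK-Mel 24, 6.65 ± 4.06 TPM. TYR lay 1273-fold above the next line in counts, DCT 538.5-fold and TYRP1 6.5-fold, SK-Mel 24 being the next line in each case. Transcript TYR-201 held 74.1%, 70.7% and 72% of TYR TPM, and the processed transcript TYR-202 the rest. DCT-201 held 76.5%, 78.1% and 68.8% of DCT TPM, and DCT-204, annotated as a target of nonsense-mediated decay, 11.9%, 12.8% and 14.2%.

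MITF binds the E-box CATGTG, and pigment gene promoters are known for an extended form, the M-box TCATGTG, which contains it. Both were searched on both strands, with the related E-box CACGTG, in the 250 bases before each RefSeq start. TCATGTG occurred in 2.52% of all 35116 entries, in 1.73% of entries of tested genes, in 4.66% of the 236 entries of genes above each other line and in 15.3% of the 59 entries of pigment list genes (9 of 34 genes). CATGTG occurred in 9.42%, 6.84%, 12.3% and 25.4% of the same sets, and CACGTG in 6.34%, 7.81%, 8.05% and 8.47%. Genes below each other line had TCATGTG in 1.03% of 97 entries. The 11 genes above each other line with TCATGTG were TYR, TYRP1, DCT, SLC24A5, GPR143, TRIM63, BCL2A1, ACP5, DNASE2B, GPR137B and CCL18. A match is a description of letters and not a bound site, and entries for PMEL, MLANA and other genes were not in the table. The stretches around the match are shown for the 3 enzymes and 2 melanosome genes, with the M-box in capitals in the orientation of the gene (CACATGA is the M-box read on the opposite strand). The positions (RefSeq, GRCh38.p14) were chr11:89177759-89177787, plus strand for TYR, chr9:12693200-12693307, plus strand for TYRP1, chr13:94479708-94479857, minus strand for DCT, chr15:48120964-48120989, plus strand for SLC24A5 and chrX:9765863-9765891, minus strand for GPR143. The TYR match lies 98 bases before the RefSeq start and within the first exon of TYR-201 as GENCODE draws it. The DCT entry has a second match outside the stretch shown, and so has GPR143.
TYR: agaaaagtcagTCATGTGcttttcagagg
TYRP1: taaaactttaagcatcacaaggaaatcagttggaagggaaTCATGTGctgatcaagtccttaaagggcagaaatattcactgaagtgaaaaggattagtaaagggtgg
DCT: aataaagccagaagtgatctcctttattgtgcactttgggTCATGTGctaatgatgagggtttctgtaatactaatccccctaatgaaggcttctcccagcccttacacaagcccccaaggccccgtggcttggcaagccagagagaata
SLC24A5: aggagactcctCACATGAtccagttt
GPR143: agcccgcccagCACATGAcccaggcaggc

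All 7 genes of melanosome structure were higher, each was highest in SK-Mel 28 by mean TPM, and 3 stood above each other line. MLANA, a membrane protein needed for PMEL processing, stood at 1726, 1827 and 2090 TPM and at most 1.85 TPM elsewhere. GPR143, the receptor on the melanosome that is altered in ocular albinism, stood at 178.9, 174.4 and 206.3 TPM and at most 4.76 TPM elsewhere. The 4 remaining genes were also present in other lines. GPNMB, a glycoprotein related to PMEL, stood at 1097 ± 75.4 TPM and at 532.9 ± 55.1 TPM in SK-Mel 24. BACE2, a protease that cuts PMEL, stood at 414.7 ± 15.6 TPM and 362.1 ± 33.7 TPM, which were not separated (log2 fold change -0.32, edgeR adjusted p = 0.179). CD63, which sorts PMEL inside the organelle and is common to late endosomes, stood at 4180 ± 306.9 TPM, next to 2314 ± 175.9 TPM in BJ. TSPAN10 varied among libraries (23, 5.81 and 14.5 TPM). PMEL-204 was the transcript given most of PMEL TPM (61.6%, 50.5% and 56.7%).

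Of 6 melanosome transporters, 4 were higher and 3 of these stood above each other line. SLC45A2, a transporter that sets melanosome pH, stood at 135.6, 138.8 and 160.3 TPM and at most 0.658 TPM elsewhere. SLC24A5, a cation exchanger, stood at 208.7, 246.4 and 236.0 TPM, next to 8.46 ± 1.91 TPM in SK-Mel 24. OCA2, an anion channel of the melanosome, stood at 30.2, 31.1 and 45 TPM, next to 1.17 ± 0.596 TPM in Caco2. MFSD12, a cysteine importer, was 642.5 ± 236.1 TPM and was not separated from SK-Mel 24 (log2 fold change 0.46, edgeR adjusted p = 0.172). ATP7A, the copper pump that loads TYR, and TPCN2, a cation channel, were not called (0.66 and 0.48 log2 fold change). Both are used by many cell types, and ATP7A was highest in A549.

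Of 15 genes for traffic to and of melanosomes, 10 were higher and 1 lower, and 12 were highest in SK-Mel 28 by mean TPM. RAB27A and RAB38 stood above each other line. RAB38, which delivers the enzymes, stood at 220.2 ± 30.8 TPM (SD, n = 3) in SK-Mel 28, next to 32.5 ± 2.52 TPM in SK-Mel 24, and RAB27A, which binds melanosomes to the actin motor, at 144.7, 171.0 and 180.4 TPM, next to 30.1 ± 4.48 TPM in U2-OS. The other parts of the RAB27A motor complex, MLPH and MYO5A, stood at 372.7 ± 77.7 TPM and 68.5 ± 4.61 TPM. MLPH was also present at 133.4 ± 4.97 TPM in A549. RAB32 was called higher (log2 fold change 1.76) but was close to 182.2 ± 22.2 TPM in U251. LYST (131.5 ± 11.2 TPM, next to 39.7 ± 3.71 TPM in SK-Mel 24) and MREG (78.4 ± 11.2 TPM, next to 15.8 ± 2.66 TPM in RT4), which act in lysosome-related organelles, were higher. Subunits of the HPS complexes split: HPS3, HPS4 and HPS5 were higher (log2 fold changes 1.77, 2.67 and 2.25), HPS1 was not called (0.50), and HPS6 was lower (-1.12), at 6.07 ± 1.38 TPM. The HPS6 call was lost without SK-Mel 28 replicate 2 (log2 fold change -0.95). DTNBP1 (1.00), AP3B1 (0.41) and AP3D1 (0.79) were not called, although each was highest in SK-Mel 28 by mean TPM.

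All 4 receptors were called higher, with unlike levels. MC1R, the melanocortin receptor, stood at 23.5, 13.1 and 21.6 TPM, each above 7.15 TPM, the highest of the other libraries. EDNRB, the endothelin receptor of the melanocyte lineage, stood at 65.4 ± 10.2 TPM and at 66.3 ± 12.9 TPM in SK-Mel 24 (log2 fold change 0.14, edgeR adjusted p = 0.624). ERBB3 stood at 39.3 ± 1.56 TPM, below 131.3 ± 7.51 TPM in SK-Mel 24. KIT, the receptor for stem cell factor, was called higher than the average but stood at only 0.103, 0.15 and 0.492 TPM, while RT4 had 22 ± 5.84 TPM. The KIT call was lost in limma-voom (log2 fold change 0.90).

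Beyond the organelle, 14 of 17 other genes known as MITF targets were higher, 1 was lower and 7 stood above each other line (median log2 fold change 2.80). Over all tested genes the shares were 20.2%, 13.5% and 1.23%. BCL2A1, a survival protein of the BCL2 family, stood at 301.7, 369.9 and 338.8 TPM, next to 9.78 ± 5.15 TPM in SK-Mel 24. BIRC7, an inhibitor of apoptosis, stood at 125.6, 59.1 and 95.1 TPM. ACP5 (219.4 ± 51.1 TPM), a lysosomal phosphatase, CAPN3 (296.1 ± 48.9 TPM), a protease, RRAGD (71.3 ± 7.68 TPM), a GTPase of the nutrient pathway, GMPR (62.8 ± 5.09 TPM), a nucleotide enzyme, and TRPM1 (8.13 ± 2.87 TPM), a channel, also stood above each other line. PPARGC1A, a coactivator of mitochondrial genes that MITF drives in some melanomas, was nearly absent at 0.0193, 0.142 and 0 TPM, and was called lower (log2 fold change -4.61 ± 0.61 (SE), edgeR adjusted p = 5.31e-07), a call lost without Caco2 replicate 1. MET, another known target, named after its values were seen, was not called (0.10).

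The 25 protein-coding genes farthest above the next line (of 146 at 5 TPM or more) included 7 of the pigment lists. For all 25 the lowest SK-Mel 28 library exceeded the highest other library. The genes were chosen by their margin in these same libraries, so this largely follows from the choice. RGS1, a regulator of G protein signalling known from lymphocytes, led with 111.8, 189.2 and 200.5 TPM and at most 0.131 TPM elsewhere, at least 1406-fold above each other line against a floor of 3 counts over the libraries of a line. OR2C3, an olfactory receptor gene, stood at 8.52, 10.5 and 11.8 TPM and CTSG, a protease of neutrophil granules, at 12.8, 14.6 and 19.9 TPM. Both had 0 counts in all 24 other libraries, which puts SK-Mel 28 at least 186.7-fold and at least 73.7-fold higher. PLA1A, a phosphatidylserine phospholipase, stood at 493.9, 514.3 and 583.9 TPM, and TRIM63, a ubiquitin ligase known from muscle, at 50.9, 62.4 and 79.3 TPM. SLC16A6, a transporter of the monocarboxylate family, stood at 263.9 ± 42.3 TPM and at most 1.41 TPM elsewhere.

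Several of these genes encode receptors better known from immune or nerve cells. SLAMF7 stood at 186.3, 233.9 and 285.5 TPM, with at most 2.5 TPM in any other library. The serotonin receptor HTR2B stood at 205.2, 215.8 and 211.7 TPM, next to 1.21 ± 0.437 TPM in SK-Mel 24. NRROS, a carrier of latent TGF-beta, stood at 83.2 ± 18.6 TPM, IL12RB2, an interleukin 12 receptor chain, at 18.5 ± 1.16 TPM and GPR18 at 6.72 ± 0.997 TPM. RPH3A, a vesicle protein of neurons, stood at 36.1 ± 3.41 TPM, PCSK2, a prohormone convertase, at 74.3 ± 18.8 TPM and RLBP1, the retinaldehyde-binding protein of the retina, at 52.6 ± 8.92 TPM. SPATA22, a meiosis gene, PNLIPRP3, a lipase relative, and PRDM7 stood at 6.45 ± 0.489 TPM, 13.2 ± 1.52 TPM and 70.1 ± 11.4 TPM. PRDM7 has a near-identical copy, PRDM9, so its value is uncertain. Of 6 leukocyte markers tested 2 were higher and 2 lower (33.3% each, against 20.2% and 13.5% of all tested genes). CD3E and CD3D were at 0 in all 3 SK-Mel 28 libraries, CD14 at 0.0108 ± 0.0188 TPM and PTPRC at 1.66 ± 0.176 TPM. CD68, described below, stood above each other line.

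**Figure D2:**
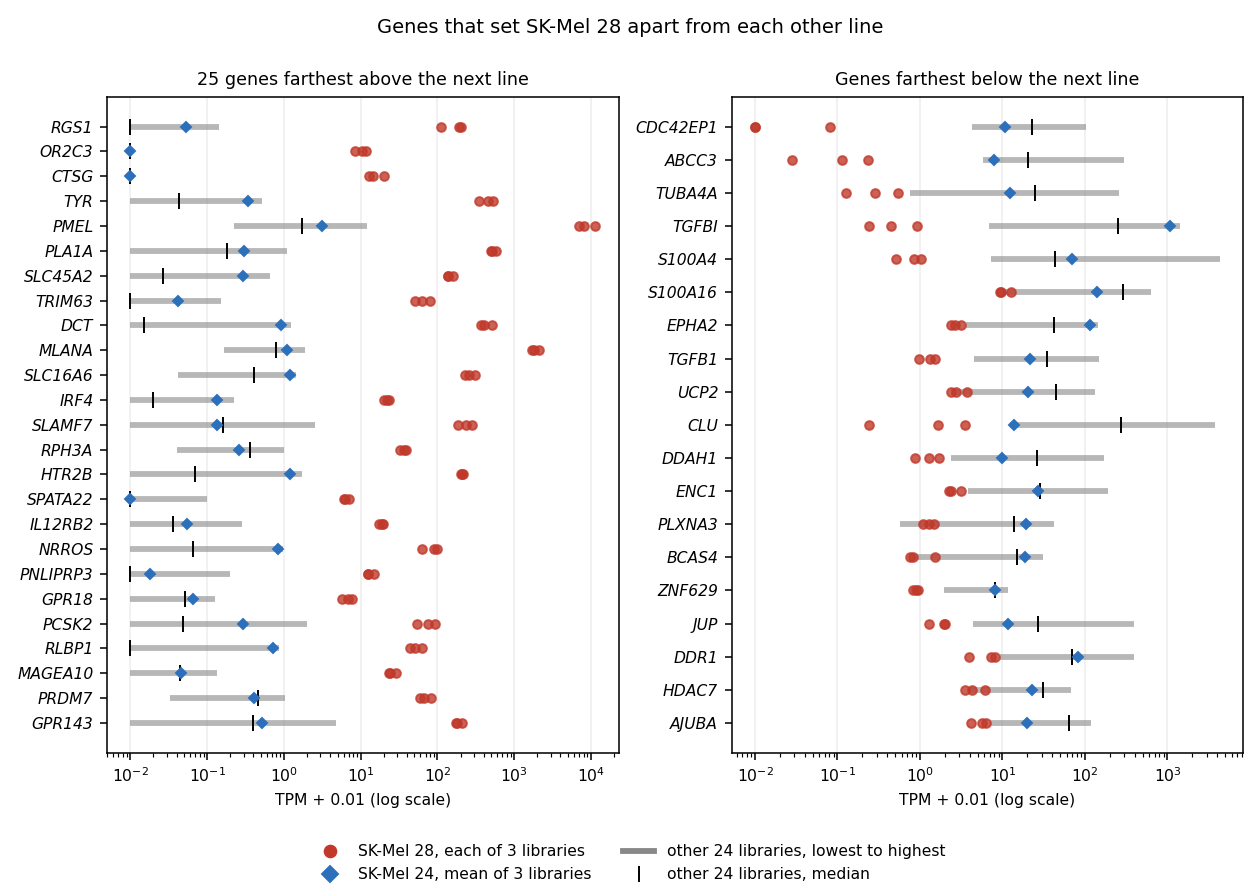
TPM plus 0.01 on a log axis for the 25 protein-coding genes farthest above the next line and for the described genes among the 20 farthest below it: red points are SK-Mel 28 libraries, blue diamonds the SK-Mel 24 mean, grey bars the range and black ticks the median of the other 24 libraries. On the left no red point meets a grey bar, and on the right 5 genes overlap with it.

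The 20 protein-coding genes farthest below the next line (of 23 with at least 5 TPM in that line) are described next. CDC42EP1, an effector of the GTPase CDC42, stood at 0.071, 0 and 0 TPM, against 5.42 ± 1.73 TPM in RT4, the lowest of the other lines. It rests on 3 counts over the SK-Mel 28 libraries. ABCC3, a drug and bile acid exporter, stood at 0.224, 0.0181 and 0.104 TPM, against 7.88 ± 1.89 TPM in SK-Mel 24. TGFBI, a matrix protein induced by TGF-beta, stood at 0.909, 0.44 and 0.229 TPM, and the other libraries at 6.86 to 1410 TPM with a median of 253.3. TUBA4A, an alpha-tubulin, stood at 0.306 ± 0.207 TPM, S100A4, a calcium-binding protein of motile cells, at 0.783 ± 0.264 TPM and CLU, a secreted chaperone, at 1.78 ± 1.62 TPM. The other 24 libraries had at least 7.29 TPM of S100A4 and at least 12.4 TPM of CLU. The actin and junction proteins AJUBA and JUP stood at 5.33 ± 1.04 TPM and 1.74 ± 0.393 TPM. EPHA2 (2.72 ± 0.382 TPM), a receptor kinase, TGFB1 (1.27 ± 0.287 TPM), DDAH1 (1.28 ± 0.419 TPM), ENC1 (2.59 ± 0.504 TPM) and ZNF629 (0.877 ± 0.065 TPM) were lower than every other library. For S100A16, UCP2, PLXNA3, BCAS4 and HDAC7 the TPM ranges overlapped, each time with HepG2 the lowest other line. DDR1, a collagen receptor on chromosome 6, also passed (6.41 ± 2.22 TPM), but 114 of its transcripts come from alternate copies of that region, and without these the log2 fold change went from -3.21 to -0.68 (edgeR adjusted p = 0.203) and the call was lost.

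Of 25 genes of the undifferentiated melanoma state, 12 were lower and 7 higher (median log2 fold change -0.64), against 13.5% and 20.2% of all tested genes. TGFBI and EGFR were among the 3 members that stood below each other line. EGFR stood at 0.741, 0.864 and 0.845 TPM, against 10.6 ± 0.862 TPM in SK-Mel 24, and the receptor AXL at 0.337, 0.753 and 0.272 TPM, against 192.1 ± 6.83 TPM. SOX9, a crest factor opposed to SOX10, stood at 0.0749, 0.107 and 0.0449 TPM, below each of the other 24 libraries, the lowest of which was 0.311 TPM. NES and JUN, chosen after their values were seen, were also lower, at 0.0572 ± 0.0182 TPM and 3.01 ± 1.32 TPM, against 95.6 ± 11.9 TPM and 20.1 ± 2.49 TPM in SK-Mel 24. Other members of the list were higher: POU3F2, a neural factor of invasive melanoma, stood at 14.7 ± 2.76 TPM, and, chosen after their values were seen, TNC at 531.0 ± 101.1 TPM, SERPINE2 at 1196 ± 265.3 TPM, CD44 at 467.4 ± 12.4 TPM, PLAUR at 151.5 ± 3.74 TPM and NGFR at 11.6 ± 5.56 TPM. SERPINE2, CD44 and NGFR were lower than in SK-Mel 24 (log2 fold changes -1.94, -1.31 and -2.77, each passing the test), PLAUR was higher (1.77), and TNC was not separated (log2 fold change 0.36, edgeR adjusted p = 0.608).

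**Figure D3:**
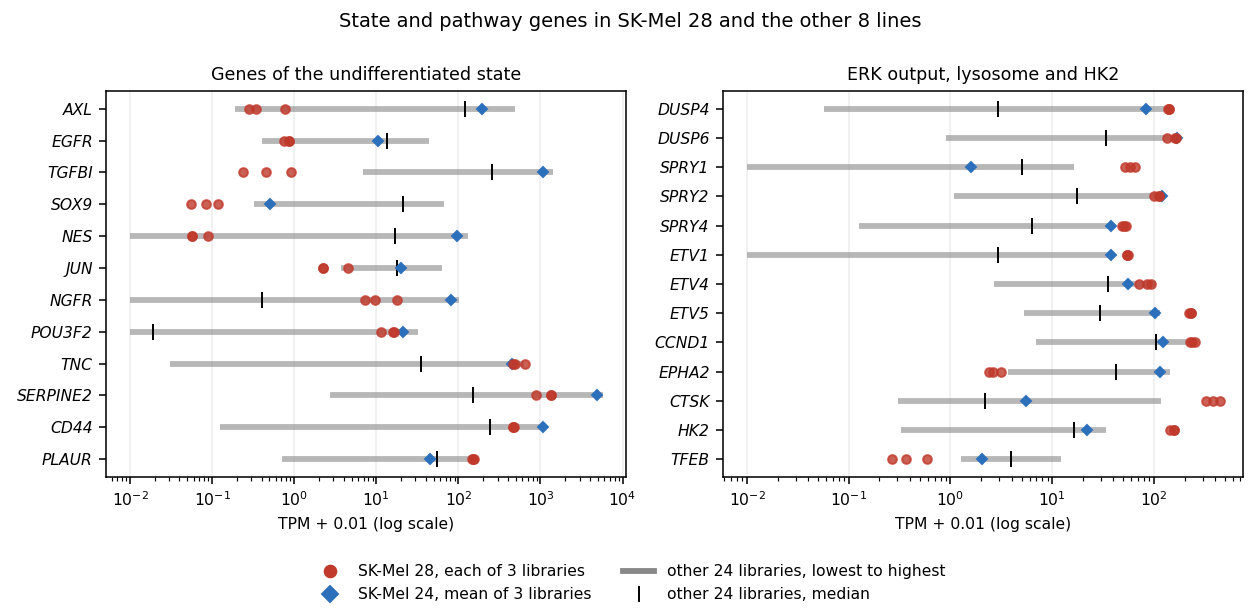
TPM plus 0.01 on a log axis for genes of the undifferentiated state and for ERK output, lysosomal and metabolic genes: red points are SK-Mel 28 libraries, blue diamonds the SK-Mel 24 mean, grey bars the range and black ticks the median of the other 24 libraries. TGFBI, SOX9, EPHA2 and TFEB lie to the left of the bars, and SPRY1, ETV5, CTSK and HK2 to the right.

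Most genes transcribed in response to ERK signalling were higher: 14 of 18 passed the test and 1, EPHA2, was lower (median log2 fold change 1.79). By mean TPM 8 were highest in SK-Mel 28. DUSP4, a phosphatase that restrains ERK, stood at 136.3, 140.5 and 141.9 TPM, with 110.4 ± 28.1 TPM in A549. ETV1, a factor of the ETS family, stood at 55, 54.2 and 54 TPM, next to 37.8 ± 3.57 TPM in SK-Mel 24, and SPRY1, a feedback inhibitor, at 52, 65.4 and 58.5 TPM, next to 15.8 ± 1.24 TPM in Caco2. ETV5, chosen after its values were seen, stood at 227.8 ± 4.38 TPM, next to 103.0 ± 14.3 TPM in SK-Mel 24. None of the higher genes stood 4-fold above each other line. IER3, on chromosome 6, was called higher (log2 fold change 1.28), but went to -1.37 without transcripts from alternate copies of its region and lost the call without SK-Mel 28 replicate 1 (0.93). Receptor tyrosine kinases, which act upstream, split into 8 higher and 9 lower of 28 (28.6% and 32.1%). The shares over all tested genes were 20.2% and 13.5%. PDGFRB (0.0163 ± 0.0169 TPM) and FGFR2 (0.0308 ± 0.0135 TPM) were lower, and ALK was called higher at only 0.979 ± 0.224 TPM.

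Lysosomal genes were higher in 16 of 26 cases and lower in 1 (median log2 fold change 1.38), and 15 were highest in SK-Mel 28 by mean TPM. The shares called were 61.5% and 3.85%, against 20.2% and 13.5% of all tested genes. CTSK, a collagen-cutting protease, stood at 325.6, 379.9 and 441.4 TPM, next to 98.6 ± 16.8 TPM in BJ. ASAH1, acid ceramidase, stood at 474.6 ± 36.1 TPM, next to 194.7 ± 11.9 TPM in RT4. The summed level of the list was 10135 to 12120 TPM in SK-Mel 28, above each other library (at most 7854). TFEB, a factor that drives lysosomal genes and belongs to the MITF family, went the other way, at 0.258, 0.353 and 0.579 TPM, below each of the other 24 libraries (lowest 1.27 TPM).

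Of 23 nuclear genes of oxidative phosphorylation and its regulators 3 were higher and 1 lower, under the background share for either direction. SDHB, the iron-sulphur subunit of succinate dehydrogenase, stood at 534.7, 600.2 and 474.6 TPM, next to 177.6 ± 13.4 TPM in U251 (log2 fold change 1.95 ± 0.10 (SE), edgeR adjusted p = 9.39e-15). Its partners SDHA and SDHC, chosen after their values were seen, were not called (log2 fold changes 0.02 and 0.38). COX5B and PPARGC1B were the other higher genes, at 538.6 ± 121.3 TPM and 3.43 ± 0.39 TPM. Of 20 glycolytic genes 7 were higher and 1 lower (35% and 5%, against 20.2% and 13.5% of all tested genes). HK2, the first enzyme of the pathway, stood at 158.4, 159.0 and 143.9 TPM, above each other line (next 31 ± 3.04 TPM in RT4). PFKM (149.2 ± 10.6 TPM) and ENO1 (5066 ± 389.8 TPM) were higher too, and ALDOC was lower at 0.221 ± 0.2 TPM, against 77.2 ± 4.22 TPM in SK-Mel 24.

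Of 22 extracellular matrix genes 13 were lower and 4 higher (59.1% and 18.2%, median log2 fold change -2.74). The shares over all tested genes were 13.5% and 20.2%. None of the 22 stood below each other line, and none was lowest in SK-Mel 28 by mean TPM. Their summed level was 5773 to 6063 TPM, within the range of the other libraries (238.7 to 32127 TPM, median 3237). The fibrillar collagens COL3A1, COL5A1 and COL5A2 stood at 0.0759 ± 0.048 TPM, 0.255 ± 0.229 TPM and 0.596 ± 0.0675 TPM, and LOXL4, a collagen cross-linking enzyme, at 0.0634 ± 0.0541 TPM, against 910.9 ± 61.7 TPM in SK-Mel 24. SPARC and TIMP3, chosen after their values were seen, were among the higher genes, at 3609 ± 187.9 TPM and 517.6 ± 90.1 TPM. Of 21 cadherins and integrins 10 were higher and 4 lower (47.6% and 19%, against 20.2% and 13.5% of all tested genes). ITGA7, a laminin receptor chain, stood at 44.5, 48 and 72.4 TPM, next to 13.2 ± 0.832 TPM in U251, and ITGA10, a collagen receptor chain, at 2.56, 3.6 and 3.61 TPM. Both stood above each other line. ITGB4, the hemidesmosome integrin, stood at 0.138, 0.00933 and 0.261 TPM, below each other line (lowest 1.2 ± 0.491 TPM in BJ). ITGB3 was high in both melanoma lines (100.9 ± 11 TPM and 177.8 ± 25.1 TPM), as was CDH19, a cadherin of the crest lineage, at unequal levels (10.3 ± 1.28 TPM and 155.9 ± 49.7 TPM). CDH3, P-cadherin, stood at 14 ± 2.65 TPM.

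BMP and TGF-beta ligands, antagonists and targets were lower in 9 of 24 genes (37.5%) and higher in 7 (29.2%). The shares over all tested genes were 13.5% and 20.2%. TGFB1 stood at 1.51, 1.33 and 0.952 TPM, below each other line. BMP4 (0.826 ± 0.177 TPM) and INHBB (0.0108 ± 0.00933 TPM) were lower, and BMP7, a ligand, was higher at 54.1, 36 and 46.1 TPM, next to 33.3 ± 5.85 TPM in Caco2. Of 27 WNT genes 8 were lower (29.6%) and 5 higher (18.5%), against 13.5% and 20.2% of all tested genes. limma-voom called 14 of them lower. The ligands WNT3, WNT5B and WNT7B stood at 0.0774 ± 0.0417 TPM, 0.0604 ± 0.105 TPM and 0.0219 ± 0.0212 TPM. WNT3, below each other line, has 5 transcripts on alternate copies, and the call was lost without them (log2 fold change -5.74, edgeR adjusted p = 0.129). SFRP1, a secreted WNT inhibitor, was higher at 148.4 ± 12.8 TPM, below 335.7 ± 36.5 TPM in SK-Mel 24.

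Of 16 cell cycle genes, D cyclins, their kinases and inhibitors, 6 were higher and 2 lower (37.5% and 12.5%). The shares over all tested genes were 20.2% and 13.5%. CDKN2A, which encodes inhibitors of the cell cycle, stood at 93.7, 62.8 and 80.3 TPM, above each other line (next 14.4 ± 2.95 TPM in Caco2), CDKN2B at 19.7, 17.7 and 19.8 TPM and their neighbour MTAP at 57.5 ± 3.15 TPM. CDKN2A-212 held 44.3%, 64.4% and 68.5% of CDKN2A TPM in the 3 libraries and CDKN2A-201 30.6%, 26.3% and 23.1%. CDKN2A-214 held 18.6% in library 1, 0% in library 2 and 2.35% in library 3. CDKN1A, the inhibitor known as p21, was lower at 19 ± 2.35 TPM. Of 15 proliferation genes MCM5 was higher (log2 fold change 1.23) and CCNA2 lower (-1.25). The CCNA2 call was lost without SK-Mel 28 replicate 3. With the P number of the titles as a covariate none of the 15 was higher and 6 were lower.

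Of 18 inflammatory genes 4 were higher (22.2%) and 3 lower (16.7%), near the shares over all tested genes of 20.2% and 13.5%. DESeq2 called 7 of them lower and limma-voom 8. ICAM1, an adhesion molecule, stood at 247.8, 246.9 and 242.8 TPM, with 158.9 ± 118.6 TPM in SK-Mel 24. NFKBIA, the NF-kappaB inhibitor, was lower at 9.39 ± 1.04 TPM, less than any other library, and BIRC3 at 0.235 ± 0.0976 TPM. CXCL1 was called higher at 5.91 ± 1.63 TPM, while SK-Mel 24 had 292.4 ± 349.1 TPM. Interferon-stimulated genes were higher in 8 of 18 cases (44.4%) and lower in 2 (11.1%), against 20.2% and 13.5% of all tested genes. By mean TPM 3 of the 18 were highest in SK-Mel 28. The higher genes included OAS2 (24.7 ± 1.49 TPM), BST2 (237.1 ± 40.9 TPM), IFI27 (34.4 ± 7.64 TPM) and IRF7 (3.77 ± 1.33 TPM). None stood above each other line. Of 11 antigen presentation genes 3 were higher (27.3%, against 20.2% of all tested genes): CD74 (500.9 ± 60.5 TPM, with 3265 ± 660.9 TPM in SK-Mel 24), CIITA (3.16 ± 0.803 TPM) and ERAP1 (39.3 ± 2.19 TPM). Without transcripts from alternate copies 5 were higher and 3 lower, and without the SK-Mel 24 line 5 were higher. Cancer-testis genes on the X chromosome were higher in 8 of 14 tested (6 of the 20 listed were too low to test) and lower in none, while limma-voom called 5 lower. The share higher was 57.1%, against 20.2% of all tested genes. MAGEA10, MAGEA3 and CSAG1 stood above each other line, at 25.3 ± 2.73 TPM, 121.0 ± 3.95 TPM and 113.9 ± 7.63 TPM, and MAGEA4 (204.5, 207.8 and 220.7 TPM), MAGEC1 (41.6 ± 5.99 TPM) and MAGEA12 (62.7 ± 3.51 TPM) were shared with SK-Mel 24 or U2-OS. MAGE genes resemble each other closely, so their values are uncertain where reads fit several.

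Over all tested genes 20.2% were higher and 13.5% lower, and the marker lists that follow are given beside these shares. Secreted and surface markers of melanoma were higher in 9 of 10 cases, several of them shared with SK-Mel 24: S100B stood at 1665 ± 192.2 TPM and 7822 ± 1439 TPM and MIA at 1134 ± 189.6 TPM and 1485 ± 369.8 TPM. PRAME stood at 342.6 ± 35.4 TPM, with 373.6 ± 56.1 TPM in U2-OS. Schwann and glial genes were higher in 8 of 11 tested (72.7%). By mean TPM 1 of the 12 listed was highest in SK-Mel 28. Their summed level was 2694 to 2780 TPM in SK-Mel 28 and reached 12130 TPM in another library. MBP, a myelin protein, stood at 587.8, 403.3 and 656.7 TPM, above each other line (next 61.8 ± 8.48 TPM in SK-Mel 24). Epithelial genes were lower in 13 of 20 and higher in 1. KRT7 stood at 0.122 ± 0.12 TPM, KRT19 at 0.251 ± 0.251 TPM, and ST14 and PRSS8 at 0 in all 3 libraries. Fibroblast genes were lower in 9 of 15, with THY1 at 0.193 ± 0.271 TPM, and higher for TWIST1 (10.7 ± 3.31 TPM) and LUM, the latter chosen after its values were seen, at 37 ± 5.76 TPM. Of 8 keratinocyte genes tested 2 were higher and 1 lower (25% and 12.5%), near the shares over all tested genes of 20.2% and 13.5%. The number of keratinocyte genes higher ranged from 0 to 3 over the alternatives. Of 9 endothelial genes tested 3 were higher and 1 lower (33.3% and 11.1%, against the same 20.2% and 13.5%). Of the 12 keratinocyte genes listed 3 were at 0 and 3 reached 1 TPM, and no endothelial gene reached 1 TPM. The summed level of 10 leukocyte genes was 396.5 to 648 TPM in SK-Mel 28, within the range of other libraries, and almost all of it was CD68 (390.3, 442.8 and 643.6 TPM), a late endosome and lysosome protein, which stood above each other line.

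**Figure D4:**
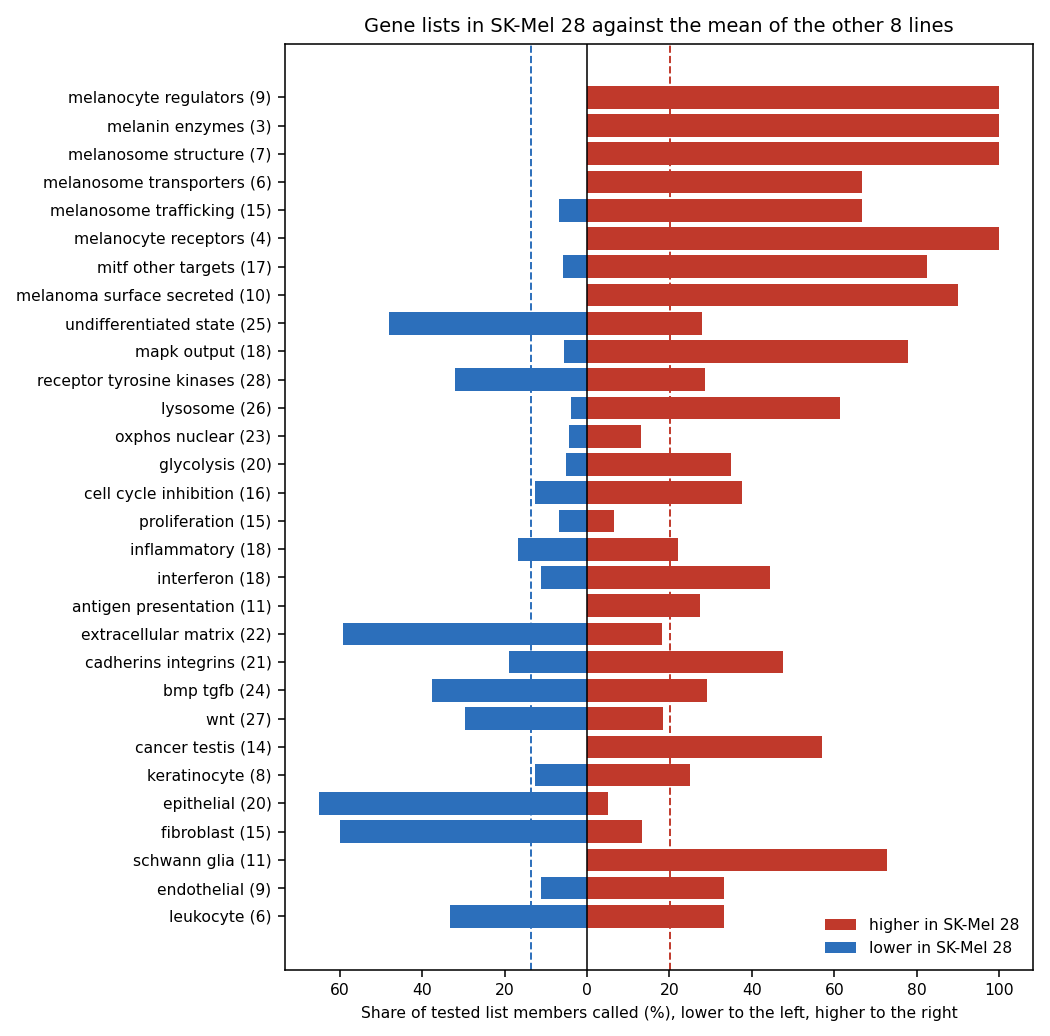
Share of the tested members of each gene list called higher (red, to the right) or lower (blue, to the left) in SK-Mel 28 than the mean of the other 8 lines, with the number tested in brackets; dashed lines mark the shares over all tested genes, 20.2% and 13.5%. The pigment lists and ERK output lie right of the red line, and matrix, epithelial and fibroblast lists left of the blue line.

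The spread among the 3 SK-Mel 28 libraries was measured next. Over 8097 protein-coding genes averaging 10 TPM or more, the median ratio of the highest to the lowest value (TPM plus 1) was 1.21. The other lines ranged from 1.22 in A549 to 3.3 in HepG2. In SK-Mel 28 255 genes (3.15%) differed over 2-fold and 10 over 4-fold. The share over 2-fold was smaller in A549 (2.19%) and SK-Mel 24 (2.63%). Of the 255, 232 were lowest in library 2 and 239 highest in library 1. Among the 255, 3 stood above or below each other line, which 1.23% and 0.44% of all tested genes did. Members of the pigment lists numbered 2. Neither count was set against its share of the 8097 genes. The 10 most variable genes were SMIM11B, SMIM11A, SCAND1, CAPS, NDUFS7, FBRSL1, LENG1, FAAP20, LAGE3 and JOSD2. SMIM11A and SMIM11B are near-identical copies whose reads the software divides: SMIM11B read 0.141, 24 and 13.9 TPM and SMIM11A 23.7, 2.57 and 14.8 TPM. NDUFS7, a subunit of respiratory complex I, read 91.8, 17.6 and 41.5 TPM, and SCAND1 54.6, 8.6 and 20.3 TPM. The titles number the 3 cultures P10, P9 and P8 without saying what the number means, and its part in this order was not tested.

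**Figure D5:**
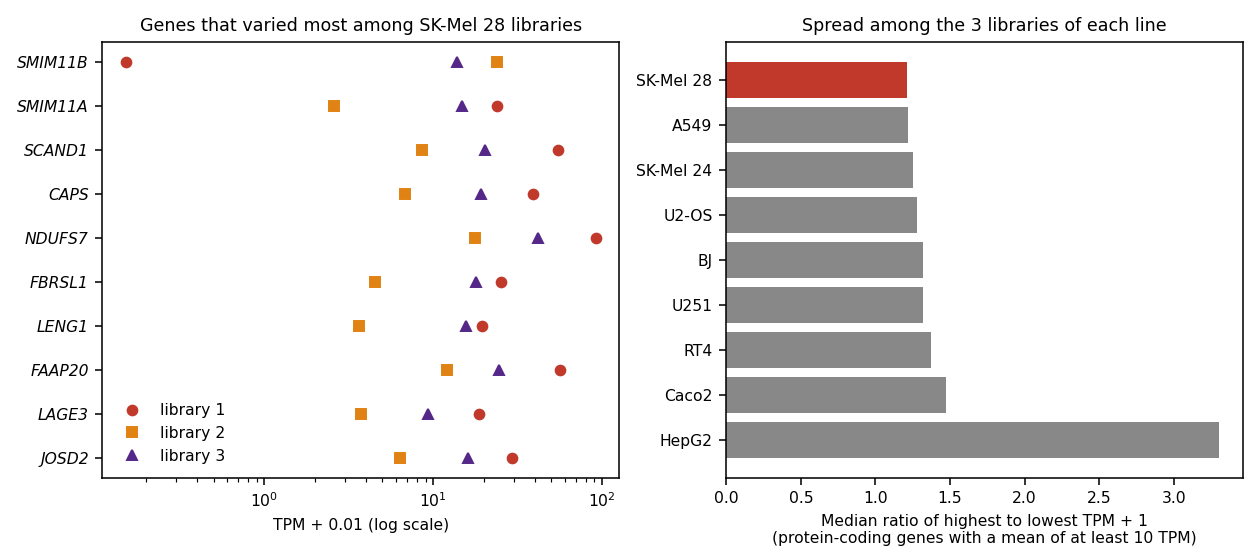
Left, TPM plus 0.01 on a log axis in each SK-Mel 28 library for the 10 most variable genes; right, the median ratio of the highest to the lowest library for each line. In 9 of the 10 genes library 2 is lowest, and SK-Mel 28 has the smallest median ratio of the 9 lines, 1.21.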

How the data were processed

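RNA from 9 cell lines, 3 libraries each and with no treatment named, was prepared with a stranded poly-A kit, per the labels' protocols. The deposited tables give an estimated count and TPM for 176241 transcripts, per the file headers. Tools named, with no role, in the submitters' processing notes were kallisto 0.43.1 and CASAVA 1.8, and the build was GRCh 38.

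Transcripts were summed to GENCODE 29 genes. Transcripts of alternate loci (13365, of 1436 genes) were joined by symbol, a step chosen after the data were seen, and 2989 (1.7%) stayed unmatched. Estimated counts, rounded, were fitted with edgeR 4.0.16 in R 4.3.3 (TMM scaling, low-count filter, robust quasi-likelihood test, 1 mean per line, all 27 libraries; biological coefficient of variation 24%). Calls needed a difference of 1 or more on the log2 scale and a Benjamini-Hochberg adjusted p under 0.05. A gene above (or below) each other line had the largest of 8 one-sided p-values under 0.05 after adjustment and stood at least 4-fold from the next line. TPM gives the levels. Smallest folds use counts, with a floor of 3 counts over the libraries of a line. Alternatives used DESeq2 1.42.0, limma 3.58.1, other filters, the P number of the titles as a covariate, primary-assembly transcripts alone, and omission of each library or of a line. The fit was tested on simulated data. Replicate numbers follow accession order, and no replicate pair agreed within sampling noise.

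Named genes were the 25 protein-coding genes with the largest margin above the next line (at least 5 TPM), the 20 with the largest margin below it (at least 5 TPM in that line), all members of the pigment lists, in each other list the 4 called members with the largest change and those above or below each line, and the 10 genes varying most among SK-Mel 28 libraries. Members and lists were chosen with earlier results of these data known. A few genes that the rule names are not reported here.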

Additional observations from a re-analysis of the deposited data

How the results depend on the processing

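Over 38 alternatives, the calls of 300 genes named or called in a list gave 11304 of 11400 values with the same direction and side of the threshold; 81 values (39 genes) lost the call, 13 (DTNBP1) gained it and 2 reversed. The reversals were LDHB without the HepG2 line (log2 fold change -0.05) and IER3 from primary-assembly transcripts alone (-1.37); the cause was not tested. Genes lower than the average numbered 3655 in limma-voom, where 48.1% of called genes were higher, against 60% in edgeR and 51.3% in DESeq2. Without the SK-Mel 24 line 344 genes stood above and 122 below each remaining line, and without HepG2 124 stood below, since fewer lines had to be passed. Without the low-count filter the median log2 fold change was -0.22, against -0.03. Of the 213 genes above each other line DESeq2 kept 171, and 164 remained with the P number of the titles as a covariate, where 177 were called in all. Leaving out 1 library gave 3411 to 3591 genes higher, 2149 to 2364 lower, 66 to 79 below each other line and no fewer than 195 above, and median ratios among SK-Mel 28 libraries of 1.11 to 1.15 when 1 of them was left out. No paired analysis was possible because replicate numbers follow accession order and pair no samples across lines. TPM in HepG2 is limited by its mitochondrial share.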
